A study of Mus musculus with 3 samples.

Results

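The genes described here carry the signal that sets pigment cell activity from outside the cell: the receptors Mc1r, Ednra and Ednrb, the G protein alpha subunits Gnas, Gnaq and Gna11, the kinase subunit Prkaca, the phosphodiesterase Pde4d, the transcription factor Creb1 and its coactivator Crtc3. They were chosen by name, and all 10 have a row among the 17285 rows of the table. The RNA came from a stable empty-vector line (labelled Mock) of the mouse melanoma B16, and was sequenced in 3 samples that form 1 group, Mock replicates 1, 2 and 3. Every sample carries the vector, so no line without it and no treated cells were measured, and no groups could be compared. Whether the line is 1 clone or a pool, and whether the 3 samples are separate cultures, is not in the labels. The p-values therefore come from these 3 samples alone, and their spread may be technical. For levels and ratios the spread was estimated jointly over genes, not from each gene's own 3 values alone. Ratios to the same gene share its error, so their p-values and intervals can be too small and too narrow. Levels are given in reads and in CPM, which is reads scaled to library size, and between genes per kilobase (kb) of annotated exon.

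In melanocytes, alpha-melanocyte-stimulating hormone binds the melanocortin 1 receptor, which couples to the stimulatory G protein alpha subunit encoded by Gnas. Adenylyl cyclase then makes cyclic AMP, which frees the catalytic subunit of protein kinase A (PKA), and PKA phosphorylates CREB at promoters with a cyclic AMP response element (CRE). Endothelin receptors couple mainly to the Gq class, which activates phospholipase C beta and to which Gnaq and Gna11 belong, beside Gna14 and Gna15. Mutations of GNAQ and GNA11 are known from human uveal melanoma.

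The libraries held 9328087, 9456501 and 9438894 reads after rounding in replicates 1, 2 and 3, so that 1 read was worth about 0.106 CPM. All 11 pigment cell markers measured were above 1 CPM, with a summed level of 24325 to 25722 CPM per library. Their means ran from 6.52 to 12337 CPM, so the sum is set by the highest genes. Of the 16 markers of leukocytes, endothelium, fibroblasts and epithelium with a row, 12 had no reads and 4 were below 1 CPM. Pecam1, Cd79a, Pdgfra and Cldn4 were those 4, and no list of the other cell types summed to more than 0.424 CPM in any library. The extraction text mentions organs, although the samples are labelled as a cell line.

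The 250 bases before the RefSeq start site (GRCm38.p6, on the strand of the gene) are shown for the 3 receptor genes and for the pair Gnaq and Gna11, because these genes have like roles and different levels. Capitals mark every match, on either strand, to CATGTG (an E-box bound by the melanocyte factor MITF), TGACG (the core of a CRE) and GGGCGG (a GC box). Other E-boxes, such as CACGTG, were not searched, so a stretch without CATGTG may still hold one. The full CRE, TGACGTCA, which contains the core, was searched as well.
The Mc1r stretch is chr8:123406832-123407081 on the plus strand, that of Ednra chr8:77724453-77724702 on the minus strand, that of Ednrb chr14:103843702-103843951 on the minus strand, that of Gnaq chr19:16132434-16132683 on the plus strand and that of Gna11 chr10:81545163-81545412 on the minus strand.
Mc1r: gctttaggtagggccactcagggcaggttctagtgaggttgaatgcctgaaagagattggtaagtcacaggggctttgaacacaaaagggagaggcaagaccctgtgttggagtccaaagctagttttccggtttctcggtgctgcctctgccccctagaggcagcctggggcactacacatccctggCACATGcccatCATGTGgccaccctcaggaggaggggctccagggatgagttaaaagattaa
Ednra: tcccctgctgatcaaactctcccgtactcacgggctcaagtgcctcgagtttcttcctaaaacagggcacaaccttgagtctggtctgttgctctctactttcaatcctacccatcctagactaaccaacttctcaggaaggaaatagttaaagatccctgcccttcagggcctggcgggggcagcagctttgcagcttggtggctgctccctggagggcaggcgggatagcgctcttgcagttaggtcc
Ednrb: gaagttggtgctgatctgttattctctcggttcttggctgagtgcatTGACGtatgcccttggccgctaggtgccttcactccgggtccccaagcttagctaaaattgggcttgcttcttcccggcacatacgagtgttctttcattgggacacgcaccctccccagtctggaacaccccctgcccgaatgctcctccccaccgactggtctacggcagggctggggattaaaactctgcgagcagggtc
Gnaq: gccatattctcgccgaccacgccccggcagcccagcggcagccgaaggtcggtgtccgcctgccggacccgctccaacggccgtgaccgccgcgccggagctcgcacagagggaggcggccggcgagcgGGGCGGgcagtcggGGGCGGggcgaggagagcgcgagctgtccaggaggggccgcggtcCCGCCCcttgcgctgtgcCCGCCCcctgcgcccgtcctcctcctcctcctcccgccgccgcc
Gna11: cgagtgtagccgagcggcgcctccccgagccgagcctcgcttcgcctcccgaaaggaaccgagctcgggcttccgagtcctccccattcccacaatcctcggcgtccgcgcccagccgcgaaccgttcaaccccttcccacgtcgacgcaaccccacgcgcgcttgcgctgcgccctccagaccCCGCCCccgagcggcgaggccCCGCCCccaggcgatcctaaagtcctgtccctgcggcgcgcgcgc

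The Mc1r stretch held 2 matches to CATGTG, which begin 62 and 51 bases before the start, and was poor in CpG, with 2 CpG sites. CATGTG occurred in 12.3% of all 32851 promoter stretches of that length. The Ednra stretch held none of the 4 motifs and 6 CpG sites. The Ednrb stretch held 1 TGACG, which begins 203 bases before the start and occurred in 17.8% of all stretches, and 11 CpG sites. The Gnaq and Gna11 stretches were rich in CpG, with 37 and 38 sites, and held 4 and 2 matches to GGGCGG, which occurred in 32.7% of all stretches. The median over all stretches was 6 CpG sites. No stretch of any of the 10 genes, 14 in all since Gnas has 4 and Prkaca 2 in RefSeq, held the full CRE, which occurred in 1.55% of all. The Creb1 stretch held 1 GC box and the Crtc3 stretch 3. In Prkaca, 1 stretch held 2 matches each to TGACG and GGGCGG and the other none of the 4 motifs. Of the 4 Gnas stretches, of which 2 overlap, 3 held 1 TGACG each, the overlapping pair sharing the same match, and the other held 1 CATGTG and 1 GGGCGG. Of those 3, 1 also held 2 GGGCGG. The Pde4d stretch, the only one RefSeq gives here for a gene with 20 GENCODE transcripts, had 1 CpG site and 1 CATGTG. Several windows overlap annotated GENCODE exons on the same strand, so matches there may lie in transcribed sequence. Of the 250 bases, 159 did so in Creb1, 72 in Pde4d, 28 in Gna11 and 12 in Ednra. In the 3 Gnas stretches with TGACG the overlap was 179, 198 and 250 bases. These are matches of letters in 1 window, and binding was not measured.

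Of the 10 genes, 8 were above 1 CPM, Ednra was unresolved and Ednrb had no reads. Ednrb was left out of the test, which took genes with at least 1 read, and the limit that its 0 reads allow lies below 1 CPM, at 0.106 CPM. When rows without reads were tested too, it was called below. The level of each other gene was tested against 1 CPM with edgeR's quasi-likelihood F test, and a gene was called at an adjusted p under 0.05. Of all 14408 genes tested, 74.3% were called above 1 CPM and 20.2% below, so 8 of the 9 genes tested is near the share of the whole table. None of the 9 genes tested was below 1 CPM at an adjusted or unadjusted p under 0.05, or by DESeq2's Wald test, although that test called 0 genes of the table below. The median over the 10 genes was 64.7 CPM, against 12.6 CPM over all rows of the table.

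**Figure D1:**
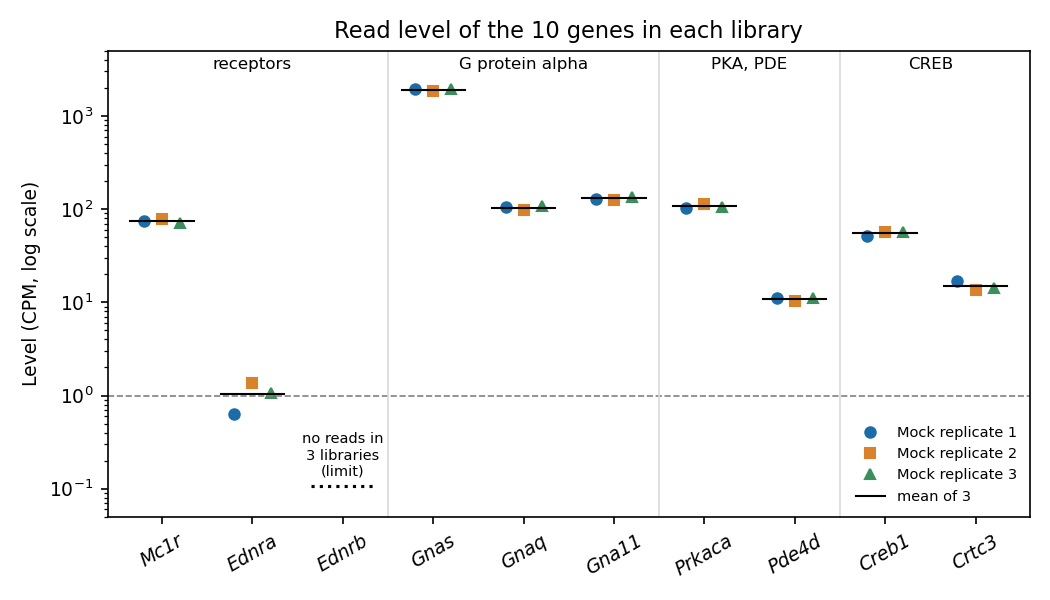
Level in CPM (log scale) of the 10 genes, grouped by role, in Mock replicates 1, 2 and 3 (points), with the mean of the 3 (black line). The dashed line is 1 CPM and the dotted line at Ednrb is the limit of 0.106 CPM that no reads allow. Gnas stands near 1919 CPM, Ednra straddles 1 CPM, and the 3 points of each other gene lie close together.

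Among the receptors, Mc1r was transcribed well above the others. Mc1r (ENSMUSG00000074037.3, chromosome 8, 123407107 to 123410744, plus strand, a single exon of 3638 bases in GENCODE) had 698, 736 and 672 reads in replicates 1, 2 and 3, or 74.6, 78.0 and 71.3 CPM. The 3 libraries lay within a factor of 1.09 of each other, and the mean of 74.6 ± 3.37 CPM (SD, n = 3) was above 1 CPM (edgeR adjusted p = 1.44e-13). Of the words of 31 bases in its transcript, 20.1% also occur in other genes' transcripts, mostly in Gm38092, an antisense model that has no row in the table. Reads from that stretch cannot be told apart from Mc1r reads if strand was not used in counting.

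Ednra (ENSMUSG00000031616.7, chromosome 8, 77663031 to 77724464, minus strand), the endothelin receptor best known from vascular muscle and cranial neural crest, had 6, 13 and 10 reads in replicates 1, 2 and 3. These were 0.641, 1.38 and 1.06 CPM, on both sides of 1 CPM. Its mean of 1.03 ± 0.370 CPM (SD, n = 3) could not be placed above or below 1 CPM (edgeR adjusted p = 0.903), and its 29 reads allow 0.688 to 1.48 CPM (exact Poisson 95% interval, counting error only). Ednrb (ENSMUSG00000022122.15, chromosome 14, 103814625 to 103844402, minus strand), the endothelin receptor that melanoblasts need for their migration in mouse embryos, had 0 reads in every library. A count of 0 allows up to 3 reads over the group, or 0.106 CPM.

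Per kilobase of exon, Ednra stood at 0.187 ± 0.0675 CPM and Mc1r at 20.5 ± 0.926 CPM (SD, n = 3 each). The log2 ratio per kilobase of Ednra over Mc1r was -6.76 ± 0.51 (SD, n = 3), that is 109-fold lower, with a 95% interval of -7.33 to -6.20 (limma adjusted p = 1.09e-119). It was lower in 3 of 3 libraries, at -7.34, -6.36 and -6.59. With the longest transcript as length the log2 ratio was -6.17. Of all 14095 genes compared, 79.2% were lower than Mc1r per kilobase. Per kilobase, Mc1r stood 823-fold and Ednra 7.53-fold above the limit for Ednrb, the floor of 3 reads over the group. The counting error of Mc1r and Ednra themselves is not in these folds. Ednra over Mc1r was 1 of 5 pairs compared, and p-values were adjusted over all genes and then over the 5 pairs.

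The stimulatory subunit gene Gnas was the most abundant of the 10. Gnas (ENSMUSG00000027523.19, chromosome 2, 174284320 to 174346744, plus strand) had 18060, 17621 and 18465 reads in replicates 1, 2 and 3, or 1929.5, 1868 and 1958 CPM. Its mean of 1919 ± 46.3 CPM (SD, n = 3) placed it at rank 25 of all rows, with 0.192% of all reads (edgeR adjusted p against 1 CPM = 6.00e-18). The locus is imprinted and makes several proteins from different first exons, and GENCODE merges its 24 transcripts into 11186 bases of exon. A row per symbol cannot separate these products. Of its words of 31 bases, 19.9% occur in other transcripts, mainly in the antisense genes Gm20721 and Nespas, neither of which has a row in the table.

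Gnaq and Gna11, the broadly expressed genes of the Gq class, were both transcribed. Gna11 (ENSMUSG00000034781.5, chromosome 10, 81528724 to 81545190, minus strand) had 1198, 1192 and 1282 reads, or 128, 126 and 136 CPM. Gnaq (ENSMUSG00000024639.5, chromosome 19, 16132831 to 16387463, plus strand) had 980, 928 and 1023 reads, or 105, 98.4 and 108.5 CPM. The lowest Gna11 library exceeded the highest Gnaq library. Gna11 averaged 130.1 ± 5.15 CPM and Gnaq 104 ± 5.12 CPM (SD, n = 3 each), both above 1 CPM (edgeR adjusted p = 1.89e-14 and 6.06e-14). Their transcripts share 16 words of 31 bases, of 4065 in Gna11 and 6129 in Gnaq, and neither had fractional counts.

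Gna11 has fewer bases of exon (4097) than Gnaq (6185), and the gap was wider per length. Per kilobase, Gna11 stood at 31.8 ± 1.26 CPM and Gnaq at 16.8 ± 0.828 CPM (SD, n = 3 each). The log2 ratio per kilobase of Gna11 over Gnaq was 0.92 ± 0.04 (SD, n = 3), or 1.89-fold, higher in 3 of 3 libraries (95% interval 0.81 to 1.03, limma adjusted p = 4.44e-57). In reads alone the log2 ratio was 0.33, so the fold depends on the annotated lengths. Of all genes compared, 21.4% were higher than Gnaq per kilobase.

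Gnas exceeded Gnaq by a log2 ratio per kilobase of 3.35 ± 0.04 (SD, n = 3), or 10.2-fold, with a 95% interval of 3.20 to 3.50. It was higher in 3 of 3 libraries, and the limma adjusted p was too small to be stored and was recorded as 0. With the length of the longest transcript in place of merged exons the log2 ratio was 4.72, and in reads alone 4.21. The merged exons of Gnas (11186 bases) far exceed its longest transcript (3947 bases).

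Downstream of cyclic AMP, the kinase gene stood far above the phosphodiesterase gene per length. Pde4d (ENSMUSG00000021699.17, chromosome 13, 108449948 to 109953461, plus strand), which degrades cyclic AMP, had 105, 97 and 104 reads, or 11.2, 10.3 and 11.0 CPM. It averaged 10.8 ± 0.496 CPM (SD, n = 3; edgeR adjusted p = 8.75e-10), and its deposited counts were not all whole numbers, so a few reads may belong to other genes. Prkaca (ENSMUSG00000005469.10, chromosome 8, 83972993 to 83996443, plus strand), the main catalytic subunit of PKA, had 959, 1063 and 998 reads, or 102, 113 and 106 CPM. The 3 libraries lay within a factor of 1.10 and averaged 107 ± 5.20 CPM (SD, n = 3; edgeR adjusted p = 5.28e-14).

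Per kilobase, Pde4d stood at 0.903 ± 0.0413 CPM and Prkaca at 43.0 ± 2.09 CPM (SD, n = 3 each). The log2 ratio per kilobase of Pde4d over Prkaca was -5.57 ± 0.14 (SD, n = 3), or 47.4-fold lower, with a 95% interval of -5.78 to -5.36 and a limma adjusted p recorded as 0. It was lower in 3 of 3 libraries, and 90.5% of all genes compared were lower than Prkaca. Pde4d has 12006 bases of merged exon and a longest transcript of 4207 bases. With the longest transcript the log2 ratio was -4.18, and in reads alone -3.30.

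Both genes of the CREB step were transcribed. Crtc3 (ENSMUSG00000030527.15, chromosome 7, 80586627 to 80688877, minus strand), a coactivator that enters the nucleus when cyclic AMP rises, had 158, 128 and 134 reads, or 16.9, 13.6 and 14.2 CPM, with replicate 1 the highest. Creb1 (ENSMUSG00000025958.14, chromosome 1, 64532645 to 64604548, plus strand), the factor that PKA phosphorylates, had 478, 531 and 537 reads, or 51.1, 56.3 and 57.0 CPM, with replicate 1 the lowest. Crtc3 averaged 14.9 ± 1.76 CPM and Creb1 54.8 ± 3.22 CPM (SD, n = 3 each), both above 1 CPM (edgeR adjusted p = 6.46e-10 and 7.07e-13). The log2 ratio per kilobase of Crtc3 over Creb1 was -1.40 ± 0.25 (SD, n = 3), or 2.64-fold lower, at -1.11, -1.57 and -1.52 in the 3 libraries (95% interval -1.60 to -1.20, limma adjusted p = 4.69e-44). The interval rests on a spread shared over all genes and does not reach the -1.11 of replicate 1. Of all genes compared, 43.5% were lower than Creb1.

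Per kilobase of merged exon, the 9 genes with reads ran in the order Gnas, Prkaca, Gna11, Mc1r, Gnaq, Creb1, Crtc3, Pde4d and Ednra. The means were 172, 43.0, 31.8, 20.5, 16.8, 3.99, 1.51, 0.903 and 0.187 CPM per kilobase in that order. In none of the 8 neighbouring pairs did the ranges over the 3 libraries overlap. The narrowest step in the upper part was Mc1r at 19.6 to 21.4 against Gnaq at 15.9 to 17.5 CPM per kilobase. With the length of the longest transcript the order was the same, but Crtc3 at 2.65 to 3.30 and Pde4d at 2.44 to 2.67 CPM per kilobase then overlapped. Mc1r at 19.6 to 21.4 and Gnaq at 17.4 to 19.2 then lay closer, without overlap. Gnas moved to 486, Creb1 to 6.55, Crtc3 to 2.91, Pde4d to 2.58 and Ednra to 0.283 CPM per kilobase, each by more than 1.5 times. In CPM without length the order differed, with Gna11 (130.1) above Prkaca (107) and Gnaq (104) above Mc1r (74.6).

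**Figure D2:**
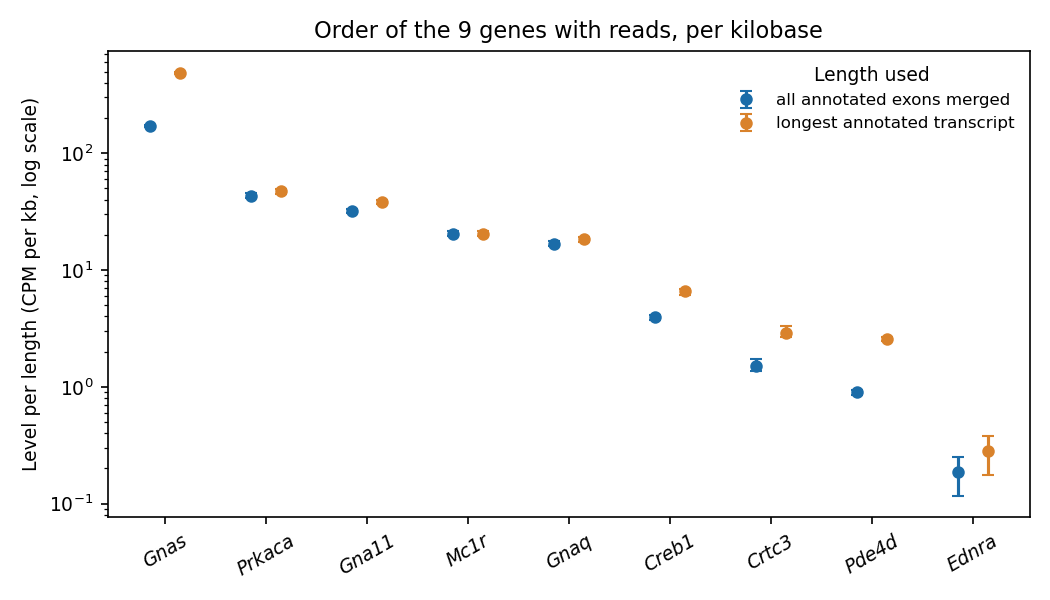
Level in CPM per kilobase (log scale) of the 9 genes with reads, with exon length taken as all annotated exons merged (blue) or as the longest annotated transcript (orange). Points are means and bars run from the lowest to the highest of the 3 libraries. The order is the same under both lengths, and the bars of Crtc3 and Pde4d overlap with the longest transcript.

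Between the libraries, 1 of the 8 genes with enough reads differed beyond counting error. The test was edgeR's likelihood ratio test at dispersion 0, over 11000 genes with a mean of at least 10 reads, of which 3.31% were called. The gene was Gnas, whose coefficient of variation (CV) was 2.42%, where counting error alone gives 0.744% (edgeR adjusted p = 0.00194). With 54146 reads Gnas had the most of the 8, and at dispersion 0 more reads let smaller differences be called. Its measured CV was the lowest of the 8, and edgeR's common spread beyond counting error was a CV of 2.80%. The call therefore does not show that Gnas varied more than the others. Replicate 2 was the lowest library of Gnas and replicate 3 its highest, 1.05 times apart. Without replicate 2 or without replicate 3 the call was lost (edgeR adjusted p = 0.587 and 0.0676), and without replicate 1 it was kept (0.00153). The measured CV was 4.52% for Mc1r, 4.93% for Gnaq, 3.96% for Gna11, 4.86% for Prkaca and 5.88% for Creb1, where counting error gives 2.86% to 4.41%. It was 11.8% for Crtc3, where counting gives 8.45%, and 4.57% for Pde4d, where counting gives 9.90%. Ednra, with too few reads to be tested, had a CV of 36.0% where counting gives 32.2%.

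**Figure D3:**
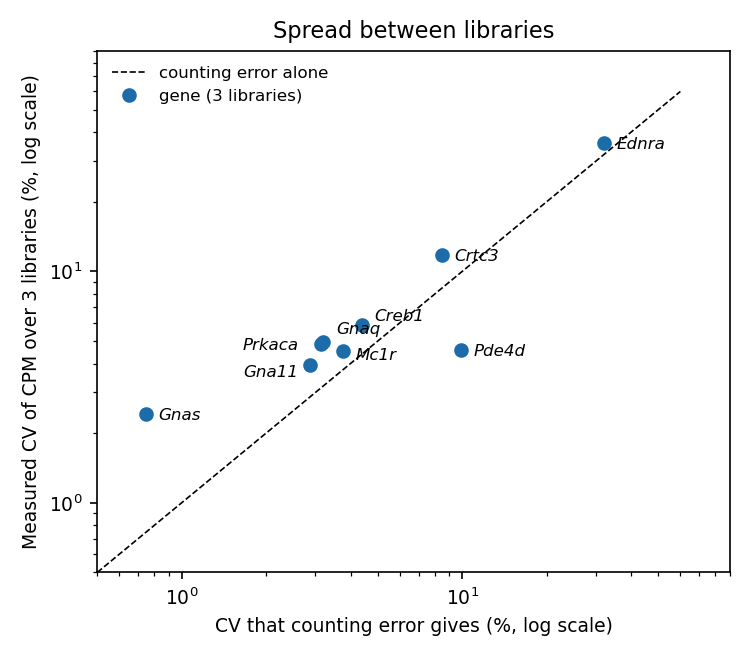
Measured CV of CPM over the 3 libraries (vertical, %, log scale) against the CV that counting error alone gives (horizontal, %, log scale) for the 9 genes with reads. The dashed line marks equality. Gnas lies farthest above the line, at 2.42% against 0.744%, and Pde4d below it. Gnas also has the lowest measured CV of the genes shown.

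The other genes of the pathway were counted in 11 lists by role, with 102 genes that have a row. Of these, 68 were above 1 CPM, 16 below, 8 unresolved and 10 without reads, and their median was 21.7 CPM. Of the 92 genes tested, 73.9% were above and 17.4% below, near the 74.3% and 20.2% of the whole table. With so common a call, a list whose genes were all above 1 CPM is not thereby set apart. Levels in these lists are named for the 3 genes with the most CPM among those above 1 CPM, all by the same edgeR test.

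Of the melanocortin genes, 3 of 8 were above 1 CPM, 3 were below and 2, Mc2r and the accessory protein gene Mrap, had no reads. Mgrn1 and Atrn, whose loss darkens the coat of mice, stood at 212 ± 3.58 and 149 ± 1.70 CPM (SD, n = 3 each). Pomc, the precursor of the melanocortin peptides, had 19, 20 and 28 reads, or 2.37 ± 0.519 CPM. It was above 1 CPM by edgeR (adjusted p = 4.37e-04) and had no call by DESeq2's Wald test (adjusted p = 0.354). Asip, Mc3r and Mc4r were not analysed here. Of 4 endothelin genes, Ece2, which encodes a converting enzyme, was above at 20.2 ± 2.14 CPM, 1 was below, and the ligand genes Edn2 and Edn3 had no reads. Edn1 was not analysed here.

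Of 15 other G protein alpha and beta genes, 9 were above 1 CPM, 2 below and 4 unresolved. The beta subunit genes Gnb1 and Gnb2 stood at 540.4 ± 4.13 and 247 ± 9.76 CPM, and the inhibitory alpha subunit gene Gnai2 at 389 ± 6.98 CPM (SD, n = 3 each). Per kilobase of merged exon Gnas stood at 172 CPM and Gnai2 at 103 CPM, and no other length was used for Gnai2. The other genes of the Gq class, Gna15 and Gna14, were named after their values were seen. Gna15 had 17, 16 and 22 reads, or 1.95 ± 0.339 CPM (SD, n = 3), and was above 1 CPM by edgeR's test (adjusted p = 0.00220) but not by DESeq2's Wald test (adjusted p = 0.547). Gna14 had 7, 15 and 14 reads, or 1.27 ± 0.459 CPM, and was unresolved by edgeR's test (adjusted p = 0.267), although it was above 1 CPM without replicate 1 (adjusted p = 0.0392). Of 10 adenylyl cyclase genes, which make cyclic AMP, 5 were above, 4 below and Adcy4 had no reads. Adcy7, Adcy3 and Adcy6 stood at 82.2 ± 5.10, 77.0 ± 2.61 and 65.9 ± 2.18 CPM. All 8 other genes of PKA subunits and inhibitors were above 1 CPM. The lowest of them stood at 2.56, 2.44 and 0.955 CPM in replicates 1, 2 and 3 (edgeR adjusted p = 0.0107). The regulatory subunit genes Prkar1a and Prkar2a stood at 424 ± 14.2 and 60.1 ± 4.04 CPM and the second catalytic gene Prkacb at 64.8 ± 4.97 CPM. Per kilobase of merged exon Prkaca stood at 43.0 CPM and Prkacb at 7.38 CPM, and no other length was used for Prkacb.

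Of 15 other phosphodiesterase genes that act on cyclic AMP, 5 were above 1 CPM, 5 below, 2 unresolved and 3, Pde4c, Pde7b and Pde8a, had no reads. Pde7a, Pde11a and Pde4b stood at 88.1 ± 5.65, 74.6 ± 3.48 and 28.6 ± 1.30 CPM (SD, n = 3 each). Per kilobase Pde4d stood at 0.903 CPM, below these 3 genes at 11.4, 14.3 and 2.71 CPM, which were picked as the highest. It stood above every other gene of the list, of which the highest was at 0.775 CPM per kilobase. These places rest on merged exons. With the longest transcript Pde4d itself stood at 2.58 CPM per kilobase, and that length was not used for the genes of the list. The cyclic AMP sensors Rapgef3 and Rapgef4 (EPAC) stood at 169 ± 9.58 and 59.0 ± 1.77 CPM, both above 1 CPM. All 9 other CREB factors, coactivators and salt-inducible kinases were above, among them the acetyltransferase genes Ep300 at 166 ± 12.3 and Crebbp at 159 ± 2.72 CPM, and Sik3, whose kinase keeps the CRTC coactivators in the cytoplasm, at 106 ± 5.81 CPM.

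Of 13 genes of Gq effectors, 11 were above 1 CPM, 1 below and 1 unresolved. Trio, an exchange factor that Gq activates, stood at 153 ± 4.28 CPM, the phospholipase gene Plcb3 at 109 ± 1.44 CPM and the inositol trisphosphate receptor gene Itpr1 at 84.7 ± 3.004 CPM (SD, n = 3 each). Of 9 genes that quench receptors or G proteins, 6 were above, 1 was unresolved, and Grk3 and Rgs16 had no reads. Rgs3, Grk2 and Grk6 stood at 155 ± 1.67, 132 ± 2.46 and 71.4 ± 1.95 CPM. All 9 genes listed as CREB targets, direct or indirect, were above 1 CPM, as were 74.3% of all genes tested. Dct and Mitf, which cyclic AMP raises in melanocytes, stood at 2713 ± 47.7 and 135 ± 6.80 CPM and the early response gene Nr4a1 at 148 ± 1.96 CPM. These were the 3 highest of the 9, whose median was 36.4 CPM and whose lowest mean was 4.71 CPM. Without a stimulated or inhibited sample, these levels do not show whether the pathway was active.

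**Figure D4:**
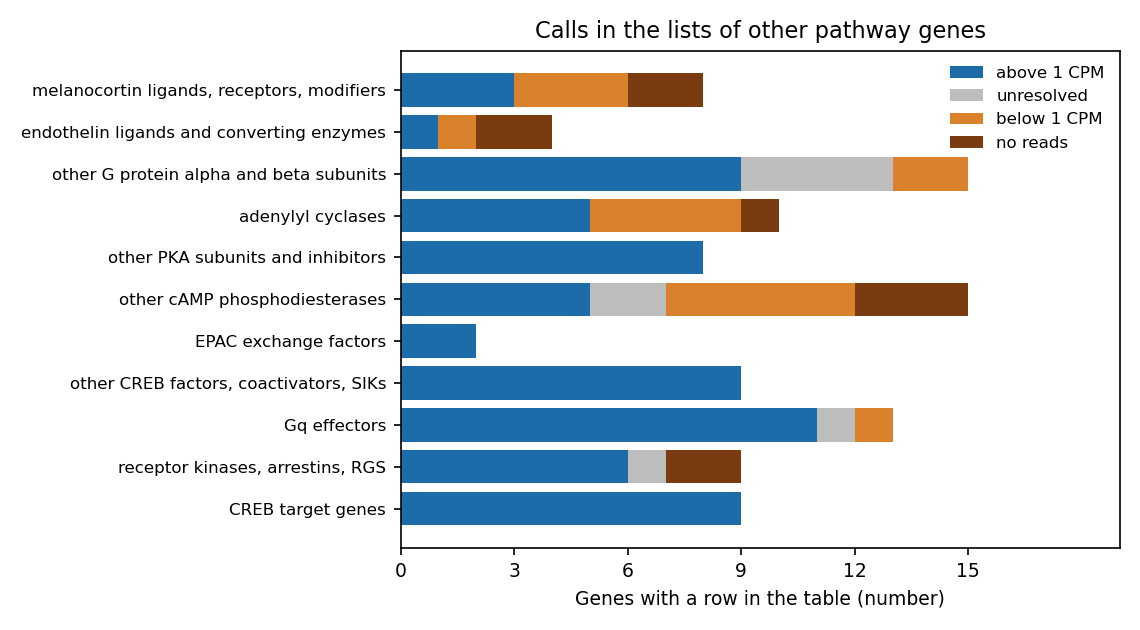
Number of genes (horizontal) above 1 CPM, unresolved, below 1 CPM or without reads, in each of the 11 lists of other pathway genes with a row in the table. All genes were above 1 CPM in the lists of PKA subunits and inhibitors (8), EPAC factors (2), CREB factors, coactivators and kinases (9) and direct or indirect CREB targets (9). Of all genes tested, 74.3% were above.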

How the data were processed

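RNA from 3 samples of the empty-vector B16 line was sequenced from libraries made by BGI, per the labels' protocols. Reads were placed on GRCm38.p6, the build in the submitters' processing notes. No aligner, counting tool, annotation, filter or strand setting is named there or in the labels. The authors' deposited table holds estimated counts per gene symbol, without normalization or pooling. Values in 13.1% of rows were not whole (tolerance 0.005), and counts were rounded before every test. Among the genes named, Pde4d, Ece2, Adcy3 and Rapgef4 had such values.

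Counts were scaled to CPM with TMM factors of 1.0034, 0.9977 and 0.9989. A level of 1 CPM corresponds to 28.2 reads over the 3 libraries. For the test against 1 CPM, edgeR 4.0.16 (R 4.3.3) was fitted with an intercept alone to all genes with at least 1 count, and the two-sided quasi-likelihood F test was bounded by the Poisson likelihood ratio test, with Benjamini-Hochberg adjustment over all genes. Ratios between genes were tested with limma 3.58.1 on log2 of counts plus 0.5 per kilobase, with lengths from GENCODE M21; their p-values cover the spread between libraries, not the choice of length. DESeq2 1.42.0 was an alternative. Promoters are from RefSeq (GRCm38.p6), which matched all 10 genes, and were searched in 250 bases before the start. The exact Poisson interval and the floors cover counting error only.

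The 10 genes and the pathway lists were chosen with earlier results of these data known. Named from the lists were the 3 genes above 1 CPM with the most CPM and genes with no count. Gna14, Gna15 and the 4 cell type markers below 1 CPM were named after their values were seen. On simulated counts, 49 of 50 genes at 2 CPM were called above 1 CPM and 33 of 50 at 0.5 CPM were called below, while 2 of 50 simulated at 1 CPM itself were called above. In the library test 191 of 200 genes raised 1.2 times in 1 library were called, against 16 of 10800 unchanged ones. The raised genes were drawn only from genes with high counts, so that share does not hold for genes such as Crtc3 and Pde4d, with 420 and 306 reads. The unchanged genes varied by counting error alone, without the common CV of 2.80% of the data. In the ratio test 100 of 100 genes at 2 times Gnaq were called higher. Of 100 equal to it, 10 were called lower and 0 higher, so that small ratios are uncertain. All ratios of a fit share the error of the denominator gene, which the joint spread treats as separate for each gene. The p-values and intervals of the ratios can therefore be too small and too narrow.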

Additional observations from a re-analysis of the deposited data

How the results depend on the processing

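No paired analysis was possible because the samples form a single group. The number of the 10 genes above 1 CPM was 8 with DESeq2 size factors, with library totals, with each count filter, against 2 CPM, by DESeq2's Wald test and without each replicate, and 9 against 0.5 CPM. The number below was 1 in place of 0 with no filter, when rows without reads were tested too, and 1 against 2 CPM, where Ednra stood at a log2 distance of -0.96 (edgeR adjusted p = 0.0109). Against 0.5 CPM Ednra was above (1.04, adjusted p = 0.0148), and without replicate 2 its distance to 1 CPM turned to -0.23 (adjusted p = 0.522), where leaving out replicate 1 gave 0.28, so its place relative to 1 CPM is unknown. Against 2 CPM the log2 distance of Gna15 turned to -0.037 (adjusted p = 0.857) and that of Gna14 to -0.65 (0.0472). Pomc lost its call against 2 CPM (adjusted p = 0.242) and by DESeq2's Wald test.

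Of the pathway genes, 68 were above 1 CPM and 16 below. The number above was 62 by DESeq2's Wald test, 64 against 2 CPM and 74 against 0.5 CPM, and 67 or 68 in the other settings. The number below was 2 among genes with at least 10 counts, since fewer low genes were then tested. With no filter it was 26, since rows without reads then entered. It was 0 by DESeq2's Wald test, which gave no such call for any row, with or without adjustment. It was 9 to 11 when 1 replicate was left out. The number of the 10 genes that differed between libraries was 1 without replicate 1. It was 0 without replicate 2, where 0 genes had an unadjusted p under 0.05, and 0 without replicate 3, where 2 did. The 5 ratios between genes kept their direction and their call under all 6 alternatives (length of the longest transcript, reads without length, an added count of 5, and each replicate left out). Depth limits Ednra and Ednrb most, at 29 and 0 reads.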
